A study of Mus musculus with 6 samples.

Results

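A small set of genes appeared to switch between present and absent from one library of EMT6 cells to the next. The genes were selected on their measured counts alone: estimated counts were rounded, and a gene was kept if its smallest count over 6 libraries was 0 and its largest was 20 or more, with Mageb16 left out. This gave 77 of the 53465 genes in the table. Because the counts chose the genes, their presence and absence below is a description, with no test. Of the 75 genes with an annotated type, 30 were pseudogenes, 18 protein coding, 13 antisense and 7 lincRNA genes. Of the 74 with a transcript sequence, 71 (95.9%) had a near-identical stretch of 200 or more bases in another gene or exons that overlap another gene, against 51.2% of genes with a largest count of 20 or more and no library at 0.

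EMT6 is a mouse mammary carcinoma line that is transplantable into BALB/c mice. The cells were cultured in RPMI with 5% FBS and 0.5 µg/ml of either an isotype control antibody (Parental, 3 libraries) or an anti-PD-L1 antibody (anti-PD-L1 Resistant, PDR, 3 libraries) for more than 4 weeks, and all libraries were made from polyadenylated RNA with a stranded kit. PD-L1 is a surface protein that restrains T cells, and the comparison asked what the antibody does to tumor cells in the absence of immune cells. The labels do not say whether the 3 libraries of a group came from separate cultures, and the study describes its replicates as technical unless it states otherwise, so p-values measure only the spread between these libraries.

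A processed pseudogene is a copy of a spliced mRNA that was inserted back into the genome, and an unprocessed pseudogene arises by duplication of a gene with its introns. Ribosomal protein genes are known for large families of processed pseudogenes, many of them nearly identical to the parent mRNA. Readthrough genes join exons of neighbouring genes on one strand, whereas antisense genes lie across another gene on the opposite strand. A short read from a stretch that several genes share cannot be placed by its sequence, and RSEM, the program behind these counts, divides such reads among the matching genes by a statistical estimate.

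The total count ran from 17757333 to 32426692 per library, and 13686 genes had a largest count of 20 or more and no library at 0. These serve as the comparison below and are called genes without a 0. Of the tumor cell markers, Krt8 had a mean of 1080.6 CPM (counts scaled to the library's total), Krt18 519 CPM, Vim 1888.5 CPM and Fn1 6249.2 CPM. Epcam was low at 1.92 CPM, and Cdh1 and Cdh2 were near 0. Among markers of other cells, Ptprc and Adgre1 were at 0 in every library, Cd3e had at most 1 count, Pecam1 from 1 to 4 and Lyz2 from 6 to 16.

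The sequences below show how little separates a switching gene from its copies. All are from transcripts of the GENCODE M21 annotation of GRCm38, the reference genome of another mouse strain, and bases that differ within a set are in capitals. The first set holds Gm2446 (chr12:55224750-55226022, minus strand, 3 exons) and Gm2436 (chr12:55149686-55150958, minus strand, 3 exons), a pair of unprocessed pseudogenes, with the same window of Ppp2r3c (chr12:55288504-55289742, minus strand), a regulatory subunit gene of protein phosphatase 2A. The pseudogenes carry the same letters in this window of 150 bases, and both differ from Ppp2r3c at the 2 capitals.
Gm2446 and Gm2436: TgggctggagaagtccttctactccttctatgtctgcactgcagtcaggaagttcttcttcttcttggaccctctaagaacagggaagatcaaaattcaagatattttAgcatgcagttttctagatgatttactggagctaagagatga
Ppp2r3c: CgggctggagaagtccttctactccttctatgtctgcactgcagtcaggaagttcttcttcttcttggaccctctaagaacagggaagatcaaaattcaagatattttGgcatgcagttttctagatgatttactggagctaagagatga

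The second set holds the processed pseudogene Rpl7a-ps11 (chrX:166854396-166854545, plus strand) and the same window of Rpl7a (chr2:26911483-26912079, plus strand, 2 exons), which encodes a protein of the large ribosomal subunit. A single base differs here, and Gm8226 (chr9:84424169-84424318, plus strand) matches the pseudogene throughout this window.
Rpl7a-ps11 and Gm8226: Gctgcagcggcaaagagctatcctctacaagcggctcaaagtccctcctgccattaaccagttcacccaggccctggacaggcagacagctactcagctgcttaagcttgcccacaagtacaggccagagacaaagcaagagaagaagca
Rpl7a: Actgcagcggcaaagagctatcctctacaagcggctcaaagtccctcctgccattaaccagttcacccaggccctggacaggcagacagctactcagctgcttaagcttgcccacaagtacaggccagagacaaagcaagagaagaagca

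The third set is a sequence of 294 bases that is the whole of Gm10222 (chr1:24612407-24612700, minus strand), an unprocessed pseudogene, and also the whole of the mitochondrial gene mt-Nd4l (chrM:9877-10170, plus strand), which encodes a subunit of respiratory complex I.
Gm10222 and mt-Nd4l: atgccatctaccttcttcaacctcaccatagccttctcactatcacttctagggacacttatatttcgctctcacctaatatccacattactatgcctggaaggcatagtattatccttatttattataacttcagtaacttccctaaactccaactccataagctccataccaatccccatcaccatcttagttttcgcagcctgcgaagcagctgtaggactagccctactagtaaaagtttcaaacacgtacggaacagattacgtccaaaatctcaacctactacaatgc

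The fourth set is the Rmrp locus, the RNA component of the RNase MRP complex. The annotation lists it under 2 gene identifiers, a lincRNA record of 281 bases (chr4:43492783-43493063, minus strand) and a ribozyme record of 271 bases (chr4:43492788-43493058, minus strand). The shorter record lies wholly inside the longer one, and the 10 bases outside it are in capitals.
Rmrp, longer record: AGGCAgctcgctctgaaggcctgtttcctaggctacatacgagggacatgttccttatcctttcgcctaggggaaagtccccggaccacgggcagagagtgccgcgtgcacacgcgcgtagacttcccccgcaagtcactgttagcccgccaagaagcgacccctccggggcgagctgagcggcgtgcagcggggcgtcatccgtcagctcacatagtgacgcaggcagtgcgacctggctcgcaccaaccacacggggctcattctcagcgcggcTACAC

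The counts of the 77 genes were low as a rule. The median of the largest count was 36, with 50 genes under 50 and 13 at 100 or more. With a floor of 3 counts for a library at 0, the library with the largest count (in CPM) was at least 3.65-fold to at least 143-fold above a library at 0, with a median of at least 10.3-fold. Floors cover counting error only. In all, the genes held between 0.0064% and 0.00947% of a library's counts.

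The libraries at 0 differed from gene to gene. There were 29 genes at 0 in 1 library, 15 in 2, 10 in 3, 16 in 4 and 7 in 5. Of the 77 genes, 31, 26 and 31 were at 0 in Parental replicates 1, 2 and 3, and 33, 29 and 38 in PDR replicates 1, 2 and 3. PDR replicate 3, with the most genes at 0, was also the shallowest library, with 17757333 counts, and Parental replicate 2, with the fewest, was the library with 30115485. The deepest library, PDR replicate 1, was second highest in genes at 0. The part of depth in these numbers was not tested. Of the 29 genes at 0 in 1 library only, 11 were at 0 in PDR replicate 3, 6 in Parental replicate 3, 4 each in Parental replicates 1 and 2, 3 in PDR replicate 1 and 1 in PDR replicate 2.

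**Figure D1:**
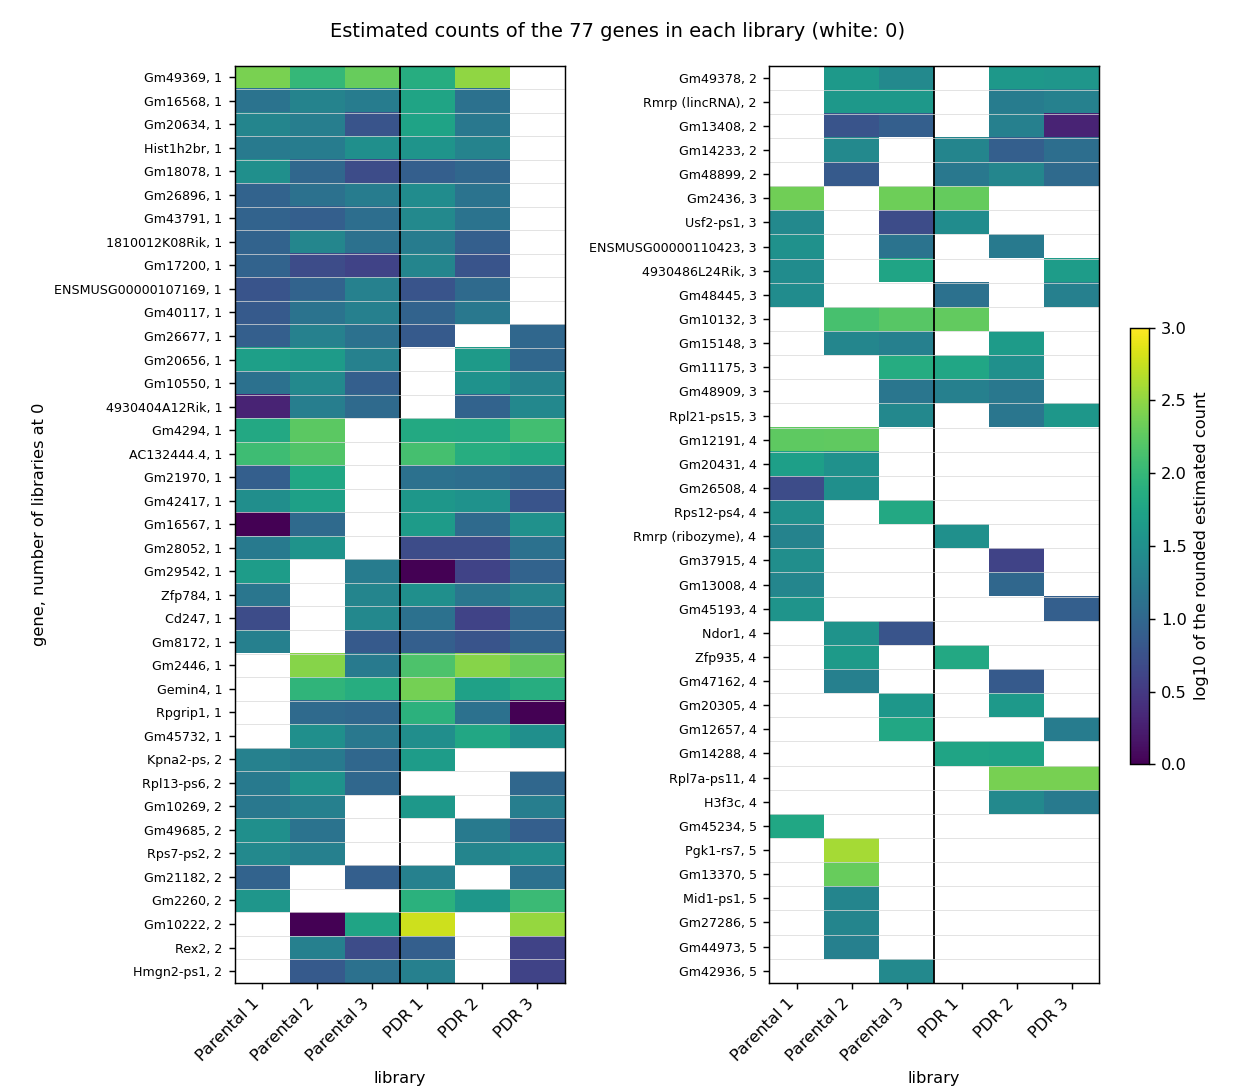
Rounded estimated count (log10 color scale, 0 in white) of the 77 genes in the 6 libraries (x axis), with the number of libraries at 0 after each gene name. The black line parts Parental from PDR, and the white cells fall on both sides of it for 43 genes.

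The zeros were then counted by group. In 43 of the 77, at least 1 library of each group was at 0, which genes at 0 in 4 or 5 libraries cannot avoid and genes at 0 in 1 library cannot show. Another 17 had zeros only in Parental and 17 only in PDR. There were 3 genes at 0 in all Parental libraries and 12 at 0 in all PDR libraries, and none of these 15 genes had 20 or more in every library of the other group. The groups did not overlap in CPM in 2 genes, Gm16567 and Gm48899. Among all 13764 genes with a largest count of 20 or more the groups did not overlap in 17.7%.

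Gm10222 had the largest count of all, with 0, 1 and 56 in the Parental libraries and 596, 0 and 337 in the PDR libraries. A count of 0 thus lay within PDR beside the highest count of any of the 77 genes. Its full-length match mt-Nd4l had 3351, 4534 and 3882 in Parental and 4227, 3605 and 1928 in PDR. The coefficient of variation (CV) of mt-Nd4l over the 6 libraries, computed on CPM, was 13.3%, and that of its sum with Gm10222 was 9.34%.

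Gm2446 and Gm2436 changed places between libraries. Gm2446 had 0, 288 and 17 in Parental and 144, 286 and 205 in PDR, whereas Gm2436 had 224, 0 and 218 in Parental and 195, 0 and 0 in PDR. Each library without Gm2446 counts had Gm2436 counts, and each without Gm2436 counts had Gm2446 counts. Their sum was 224, 288 and 235 in Parental and 339, 286 and 205 in PDR. The CV fell from 83.1% for Gm2446 and 113% for Gm2436 to 7.6% for the sum, the same value as for Ppp2r3c.

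Processed pseudogenes with a ribosomal protein copy at another locus, over 200 bases or more, made up 13 of the 77 genes. Rpl7a-ps11 had 0 in all 3 Parental libraries, 0 in PDR replicate 1 and 241 in each of PDR replicates 2 and 3. It has 37 near-identical copies, and the most abundant, Rpl7a, had a mean count of 26487.2. Gm12191, a pseudogene of Rpl30, ran the other way, with 181 and 183 in Parental replicates 1 and 2 and 0 in the other 4 libraries. Gm10132, with 20 copies that include Rpl23a, had 0, 134 and 165 in Parental and 190, 0 and 0 in PDR. Both groups held libraries with and without its counts. Rps12-ps4 had 32, 0 and 65 in Parental and 0 throughout PDR, beside a mean of 27184.3 for Rps12.

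Pgk1-rs7 and Gm13370 were each present in a single library, the same one. Pgk1-rs7 had 393 counts in Parental replicate 2 and 0 in the other 5 libraries. It is a processed pseudogene of Pgk1, which encodes the glycolytic enzyme phosphoglycerate kinase 1, and matched Pgk1 over 1255 bases without a difference. Pgk1 itself had a mean count of 28903.5. Gm13370, with 59 near-identical copies that include Rpl21, had 203 in Parental replicate 2 and 0 elsewhere. Of the 7 genes with counts in 1 library only, 5 had them in Parental replicate 2, also Gm27286, Mid1-ps1 and Gm44973 with 20 to 23 counts. Gm45234 had 62 in Parental replicate 1 alone and Gm42936 had 26 in Parental replicate 3 alone. None of the 7 had its counts in a PDR library.

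The histone variant gene H3f3a has copies among the switching genes. H3f3c, a processed pseudogene of H3f3a, had 26 and 17 in PDR replicates 2 and 3 and 0 in the other 4 libraries. Gm12657, another copy of H3f3a, had 63 in Parental replicate 3, 18 in PDR replicate 3 and 0 elsewhere. Both had counts in PDR replicate 3, and their sum had a CV of 124%, against 155% and 176% for the single genes. H3f3a had a mean count of 8725.8 with a CV of 2.94%. The window of 150 bases below (H3f3c at chr2:119665880-119666029, minus strand, Gm12657 at chr4:94599392-94599541, plus strand, and H3f3a at chr1:180810242-180811919, minus strand, 2 exons) is shown because it holds most of the differences between these genes, in capitals.
H3f3c: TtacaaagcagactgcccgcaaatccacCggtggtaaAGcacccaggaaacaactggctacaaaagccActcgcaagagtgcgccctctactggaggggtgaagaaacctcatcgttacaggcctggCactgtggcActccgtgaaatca
Gm12657: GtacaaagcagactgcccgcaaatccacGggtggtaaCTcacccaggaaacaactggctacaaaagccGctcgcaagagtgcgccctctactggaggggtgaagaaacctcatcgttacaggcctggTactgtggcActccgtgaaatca
H3f3a: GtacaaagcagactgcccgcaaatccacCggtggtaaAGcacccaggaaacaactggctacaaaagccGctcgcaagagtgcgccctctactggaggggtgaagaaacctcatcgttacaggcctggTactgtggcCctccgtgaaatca

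Readthrough genes switched beside the genes whose exons they join. Gm49369 overlaps Ctsd, which encodes the lysosomal protease cathepsin D, and Ifitm10 on the same strand, and all of its 1023 exonic bases are also exonic in another gene. It had 246, 100 and 203 in Parental and 74, 318 and 0 in PDR, beside 5289, 6273 and 5392, and 7939, 5956 and 3648, for Ctsd. Gm21970 overlaps Ifnar2 and Il10rb, genes of receptors for type I interferon and interleukin 10. It had 8, 62 and 0 in Parental and 13, 12 and 10 in PDR, beside a mean of 1452.2 for Ifnar2. Gm45234 overlaps Atn1 and Grcc10, and Gm20431 overlaps Ube2v1 and Tmem189. Gm20431 had 49, 33 and 0 in Parental and 0 in all PDR libraries.

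Gemin4, a component of the complex that assembles spliceosomal ribonucleoproteins, shares 89.8% of its exonic bases with Glod4 on the same strand. It had 0, 93 and 73 in Parental and 234, 52 and 74 in PDR. Glod4 had 1091, 1207 and 1067 in Parental and 1229, 1251 and 759 in PDR. The highest and the lowest Gemin4 count thus fell in different groups. The CV was 75% for Gemin4, 7.37% for its copies alone and 3.17% for the sum.

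4930486L24Rik had 29, 0 and 57 in Parental and 0, 0 and 45 in PDR, and Gm49392, which matches it over 1270 bases, had 108, 174 and 114, and 229, 193 and 64. Gm49392 was highest in the 3 libraries where 4930486L24Rik was at 0. The CV was 118% for 4930486L24Rik, 25.2% for Gm49392 and 9.24% for the sum. Gm42417 behaved likewise with Ankrd23, an ankyrin repeat gene. It had 30, 51 and 0 in Parental and 39, 34 and 6 in PDR, and Ankrd23 had its highest count, 80, in Parental replicate 3, where Gm42417 was at 0. The sum had a CV of 13.2%, against 67.5% and 32.1% for the single genes.

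The 2 records of Rmrp never had counts in the same library. The longer had 0, 40 and 40 in Parental and 0, 18 and 21 in PDR, and the shorter had 22, 0 and 0 in Parental and 32, 0 and 0 in PDR. Their sum had a CV of 30.9%, against 87.4% and 155% for the single records.

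**Figure D2:**
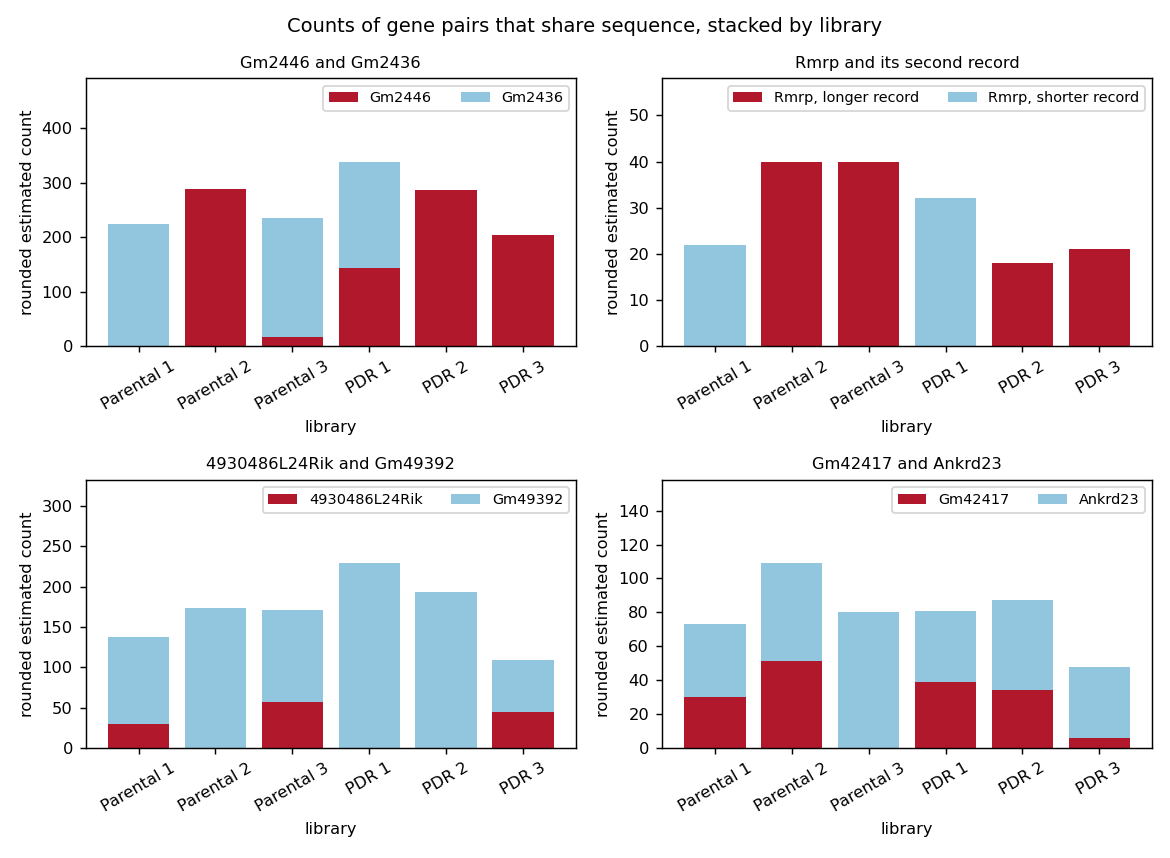
Rounded estimated counts (y axis) of 4 gene pairs that share sequence, stacked for each library (x axis), with the switching gene in red and its partner in blue (in the Rmrp panel both records are switching genes, and so is Gm2436). The pair Gm2446 and Gm2436 fills every library to between 205 and 339 counts.

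Another processed pseudogene pair, Gm21182 and Gm7645, differs at 1 base in the 788 bases aligned, shown in capitals within a window of 100 bases (Gm21182 at chr8:20557286-20557385, minus strand, and Gm7645 at chr2:181292243-181292342, plus strand).
Gm21182: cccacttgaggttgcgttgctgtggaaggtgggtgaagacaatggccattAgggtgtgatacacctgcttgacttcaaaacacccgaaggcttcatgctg
Gm7645: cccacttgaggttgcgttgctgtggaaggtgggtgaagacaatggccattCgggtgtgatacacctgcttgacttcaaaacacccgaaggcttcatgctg

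Gm21182 had 9, 0 and 8 in Parental and 21, 0 and 13 in PDR. Gm7645 had 0, 8 and 8 in Parental and 0, 15 and 0 in PDR. The sum had a CV of 33.5%, against 89% and 119% for the single genes. These counts are low, and the CV includes counting error.

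Other members of duplicated families differed in how they moved with their copies. Gm2260 and Gm2274 are pseudogenes of Anxa11, which encodes the calcium-binding protein annexin A11, and they match each other over 600 bases without a difference. Gm2260 had 38, 0 and 0 in Parental and 83, 39 and 110 in PDR, and Gm2274 had 96, 157 and 99, and 113, 176 and 4. Gm2274 was lowest in PDR replicate 3, where Gm2260 was highest. The sum had a CV of 20.5%, against 117% and 52.7% for the single genes. Hist1h2br, a gene of the core histone H2B with 13 near-identical copies, had 17, 18 and 31 in Parental and 36, 22 and 0 in PDR. Its longest match, Hist1h2bq (99.75% over 2002 bases), had 12, 12 and 22 in Parental and 27, 16 and 4 in PDR, high and low in the same libraries, and their sum had a CV of 52.8%, against 59.5% for Hist1h2br and 44.9% for Hist1h2bq. Another copy, Hist1h2bk, chosen from the 13 after its values were seen, had 17, 16 and 0 in Parental and 0, 11 and 15 in PDR, at 0 in the 2 libraries where Hist1h2br was highest. With all 13 copies the sum had a CV of 13%, against 11.7% for the copies without Hist1h2br.

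Pseudogenes of other widely expressed genes were also among the 77. Gm4294, a pseudogene of Rpl15, had 64, 175 and 0 in Parental and 67, 65 and 122 in PDR. Kpna2-ps, which matches the nuclear import gene Kpna2, had 21, 17 and 10 in Parental and 45, 0 and 0 in PDR. Usf2-ps1, from the transcription factor gene Usf2, had 26, 0 and 5 in Parental and 29, 0 and 0 in PDR. Hmgn2-ps1, identical over 279 bases to Hmgn2, a nucleosome-binding protein gene, had 0, 7 and 13 in Parental and 20, 0 and 4 in PDR. In each of these 4 genes the counts of the groups overlapped.

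By symbol, zinc finger genes were represented by Zfp935 and Zfp784. Zfp935 had 0, 43 and 0 in Parental and 65, 0 and 0 in PDR, and its 1631 bases differ from Gm49359 at 1 base. Gm49359 had a mean count of 299. Gm14288, which belongs to a cluster with 40 near-identical copies, had 57 and 53 in PDR replicates 1 and 2 and 0 in the other 4 libraries. Rps7-ps2, which matches Odc1 at 95.6% over 500 bases, had 26, 20 and 0 in Parental and 0, 23 and 29 in PDR.

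In 20 genes, 12 of them of type antisense, 5 lincRNA, 2 protein coding and 1 misc_RNA, the exons overlapped those of a gene on the opposite strand only, with a median of 99.2% of exonic bases covered. The overlapping gene had a median mean count of 1152, and the switching gene had a median of 1.35% of it. Gm11175, antisense to Jund, a gene of the AP-1 transcription factor family, had 0, 0 and 72 in Parental and 59, 32 and 0 in PDR, beside a mean of 3551 for Jund. Rpgrip1, a protein coding gene known from photoreceptors, had 0, 11 and 10 in Parental and 84, 13 and 1 in PDR, and Supt16 overlaps 8.7% of its exonic bases on the other strand, the smallest share in this class. Gm37915 had 30 in Parental replicate 1, 4 in PDR replicate 2 and 0 elsewhere. Mfsd9, which covers 74.4% of its exonic bases on the other strand, had 1 in Parental replicate 1 and 24 to 39 in the other libraries. Counts of Mfsd9 were thus lowest where Gm37915 was highest, and the sum had a CV of 22.2%, against 217% for Gm37915 and 53.4% for Mfsd9. The library kit keeps the strand of the RNA, and the sources used here do not say whether RSEM was told to use it.

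Cd247, which encodes the zeta chain of the T cell receptor complex, had 5, 0 and 25 in Parental and 13, 4 and 10 in PDR. Cd3e, another chain of that complex, had at most 1 count in any library. Pou2f1 covers 56.4% of the exonic bases of Cd247 on the opposite strand and had a mean count of 705.

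The sharing of sequence was compared with that of genes without a 0. A near-identical stretch was defined as 200 or more aligned bases on the same strand with 95% identity or higher. Of the 74 switching genes with a transcript sequence, 50 (67.6%) had such a stretch in another gene, against 23.5% of 13655 genes without a 0. Sorting each gene into 1 class put 34 (45.9%) in the class with a stretch at another locus, 17 (23%) in that with same-strand exon overlap and 20 (27%) in that with opposite-strand overlap only, against 20.1%, 6.71% and 24.4%. The opposite-strand class holds only genes that the classes before it left over, and there the shares were close. Counted without that order, 31 of the 74 switching genes (41.9%) had an exon overlap on the opposite strand, against 30.5%. Neither applied to 3 genes (4.05%), against 48.8%.

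The 3 genes left over were processed pseudogenes shorter than the 200 bases that the definition asks for. Gm15148 matches Rpl39 over all of its 156 bases with 4 differences, Gm20305 matches Polr2k over 177 bases with 1, and Gm48445 matches Rrm2 over 193 bases with 3. Gm15148 (chrX:151493114-151493269, minus strand) is printed beside Rpl39 (chrX:37082701-37085127, minus strand, 3 exons) because it is a full-length case, with the differing bases in capitals.
Gm15148: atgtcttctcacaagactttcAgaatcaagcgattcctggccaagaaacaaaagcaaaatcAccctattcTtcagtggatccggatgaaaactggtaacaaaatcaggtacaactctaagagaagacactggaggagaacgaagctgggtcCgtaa
Rpl39: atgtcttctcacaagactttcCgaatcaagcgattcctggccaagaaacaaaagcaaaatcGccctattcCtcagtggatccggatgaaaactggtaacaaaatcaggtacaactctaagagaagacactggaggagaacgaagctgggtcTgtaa

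Gm15148 had 0, 24 and 20 in Parental and 0, 44 and 0 in PDR, beside a mean of 7228.5 for Rpl39. Gm20305 had 39 in Parental replicate 3, 42 in PDR replicate 2 and 0 elsewhere. Gm48445 had 29, 0 and 0 in Parental and 13, 0 and 20 in PDR. With a stretch of 100 bases in place of 200, each of the 74 genes had a copy or an exon overlap, against 58.9% of genes without a 0. The other 3 of the 77 genes could not be examined this way, 2 with identifiers that the annotation used here does not list and AC132444.4 on an unplaced scaffold.

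Estimates that are not whole numbers were counted as well, since a read assigned wholly to 1 gene adds exactly 1. In 75 of the 77 genes (97.4%) at least 1 library had an estimate more than 0.01 from a whole number, against 43.7% of genes without a 0. The exceptions were Gm45234 and Gm26677. Among genes without a 0, the share was 91.8% with a stretch at another locus, 71.3% with opposite-strand overlap only and 6.67% with neither. In the switching genes with opposite-strand overlap only it was 19 of 20.

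**Figure D3:**
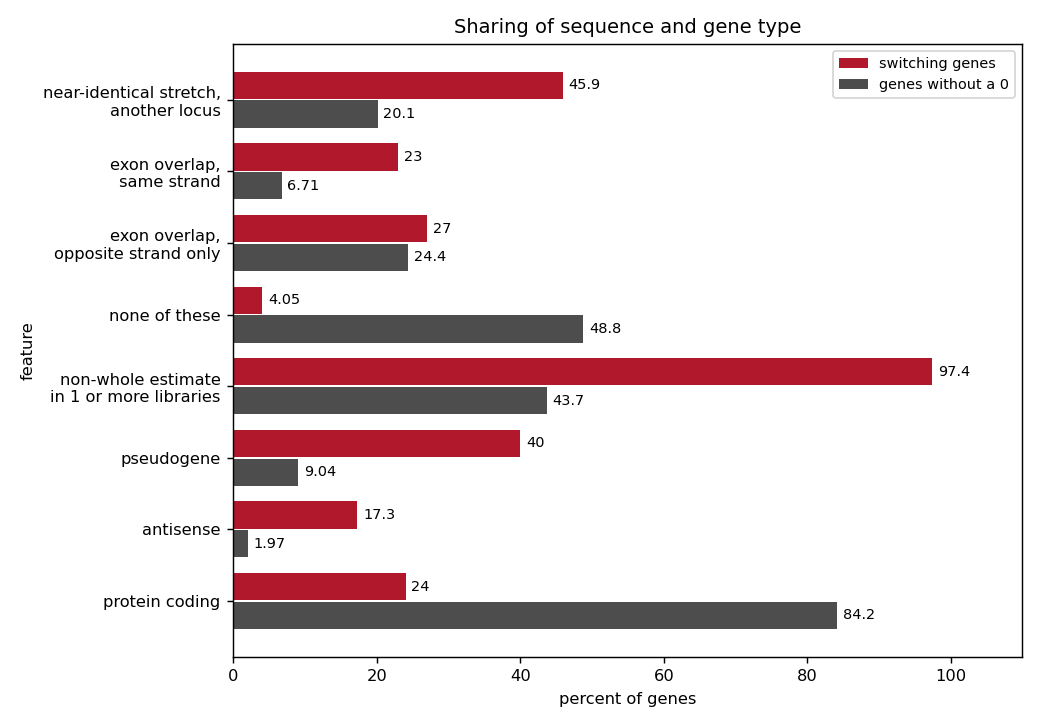
Percent of genes (x axis) with each feature (y axis), for the switching genes in red and for genes without a 0 in grey, with each value printed beside its bar. Non-whole estimates were found in 97.4% and 43.7%, and a stretch at another locus in 45.9% and 20.1%.

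Gene types differed in the same manner. Pseudogenes made up 40% of the switching genes and 9.04% of genes without a 0, and antisense genes 17.3% and 1.97%. Protein coding genes made up 24% and 84.2%. By symbol, 50 of the 77 were predicted genes named Gm with a number (64.9%, against 12.4%), 5 were ribosomal protein pseudogenes, 2 carried histone symbols (Hist1h2br and the pseudogene H3f3c), 2 were zinc finger genes and 3 Riken genes. The shares of genes with the symbol Zfp (2.6%, against 2.34%) and of Riken genes (3.9%, against 3.24%) were close to those of genes without a 0. Gm14288 and Rex2, which this symbol does not count, also have near-identical copies named Zfp. Symbols that begin as those of ribosomal protein genes made up 6.49%, against 1.21%, and those that begin as histone genes 2.6%, against 0.146%, with pseudogenes counted in both. Low counts go with some of these features. Of the 5896 genes without a 0 whose largest count lay in the range of the switching genes, 47.8% had a non-whole estimate, and 27% of those placed had a near-identical stretch. That range reaches 596, while the median of the switching genes was 36, so the set is not matched for low counts. Gene types were not compared this way.

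A count of 0 beside one of 20 or more gives a high CV, so the rule itself fixed a wide spread in each gene, with a median CV of 113% over the 6 libraries. The 77 genes summed to 73.3, 89 and 64 CPM in Parental and 83.3, 66.6 and 94.7 CPM in PDR, with a CV of 15.8%. For the 50 genes with copies, the sum of gene and copies had a lower CV than the gene alone in all 50, with a median of 4.47%. This follows largely from the rule and from arithmetic, because the CV of the gene was high by selection and in 40 of the 50 the copies together had 10 or more times the counts of the gene. In the other 10 the copies alone had a median CV of 59.8% and the sum 24.9%, and the sum was steadier than the copies in each except Gm20634, a transcript across a histone cluster. These 10 are not separate cases. Gm2446 and Gm2436 have the same sum, as do the 2 Rmrp records, and the copies of Cd247 and Gm17200 had means of 0.167 and 0.5 counts, which any sum would steady. Where the copies had 10 or more times the counts, the sum was steadier than the copies alone in 20 of 40.

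**Figure D4:**
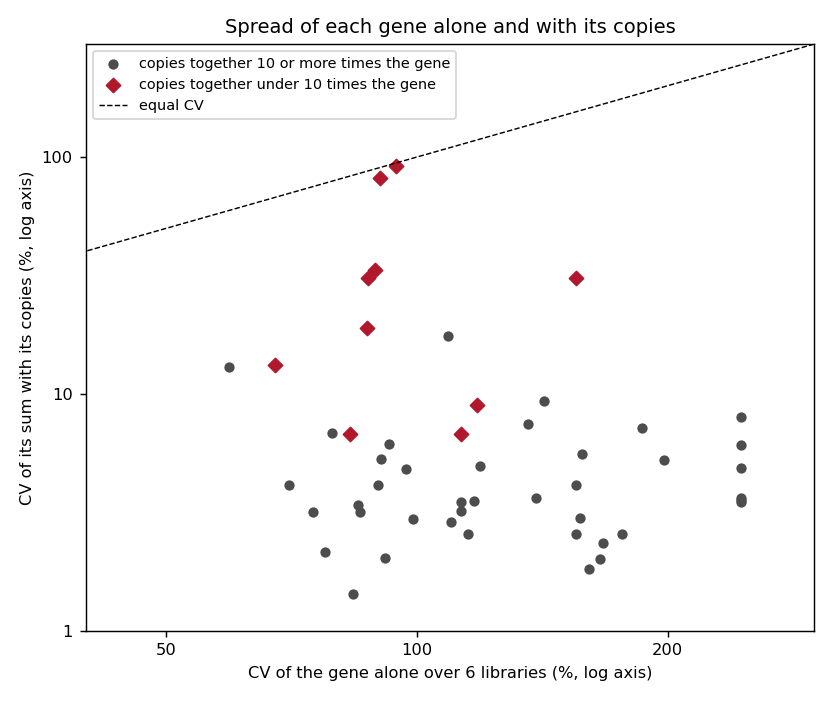
CV over 6 libraries of each of 50 switching genes alone (x axis, log) and of its sum with its near-identical copies (y axis, log), computed on CPM. Each point lies below the dashed line of equal CV, and the highest, at 91.2%, is Cd247, whose copy Gm16565 had a mean of 0.167 counts.

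PDR was then set against Parental over the whole table with edgeR's quasi-likelihood test. Of 14217 genes that passed the filter on low counts, 35 (0.246%) had an adjusted p below 0.05. The filter kept 46 of the 77 switching genes, and 0 of these were called. There were 6 with an unadjusted p below 0.05, where 11.4% of all tested genes had one. Limma-voom and DESeq2 also called 0, but DESeq2 gave no adjusted p for 39 of the 46. With the replicate number as a block 1 of the 46 was called, Gm10222 (adjusted p 0.0237 in edgeR), against 68 of all 14217 genes. Leaving out 1 library gave from 0 to 3 calls among 53 to 59 switching genes tested, against 8 to 64 calls among all genes tested. Because the filter needs counts in enough libraries, no gene at 0 in 4 or 5 libraries was tested.

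Gm48899 and Gm16567, the 2 genes whose groups did not overlap, had the lowest p-values of those tested. Gm48899 had 0, 7 and 0 in Parental and 16, 24 and 11 in PDR, 2.80 higher in PDR on the log2 scale with an SE of 0.709 (adjusted p 0.172 in edgeR). It passed the filter through the PDR libraries. Without Parental replicate 2 the gene was called (adjusted p 0.0298 in edgeR) in a fit that leaves a Parental group at 0 throughout and so gives no bound on the fold. It lies opposite to Zfp874b, which covers all of its exonic bases and had 128, 151 and 156 in Parental and 178, 174 and 103 in PDR. Gm16567 had 1, 11 and 0 in Parental and 44, 11 and 33 in PDR, 2.87 higher in PDR on the log2 scale with an SE of 0.770 (adjusted p 0.184 in edgeR). It too passed the filter through the PDR libraries. Parental replicate 2 and PDR replicate 2 had the same count of Gm16567, and the groups parted only after scaling to depth. It lies opposite to C1s1, a complement gene, with a mean of 1755.7.

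Without the filter on low counts the same edgeR test called 32 of the 77 genes (41.6%). That was against 400 of the 25274 genes (1.58%) with a rounded count above 0 in any library. Of the 32, 11 were higher and 21 lower in PDR, and the groups overlapped in 30. All 7 genes with counts in a single library were called, among them Pgk1-rs7 with a log2 fold change of -9.91 (adjusted p 1.07e-78), which rests on Parental replicate 2 alone. Its PDR libraries were all at 0, so the fit gives no bound on that fold. Among genes at 0 in 4 libraries 11 of 16 were called, and among those at 0 in 1 library 8 of 29. The lowest adjusted p was that of Gm10222, at 8.28e-126, against an adjusted p of 0.241 for the same gene after the filter, although its PDR libraries had 596, 0 and 337 counts. Since these genes were chosen for their range of counts, their share of calls is a description of this fit. The cause of the difference between the fits was not tested.

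**Figure D5:**
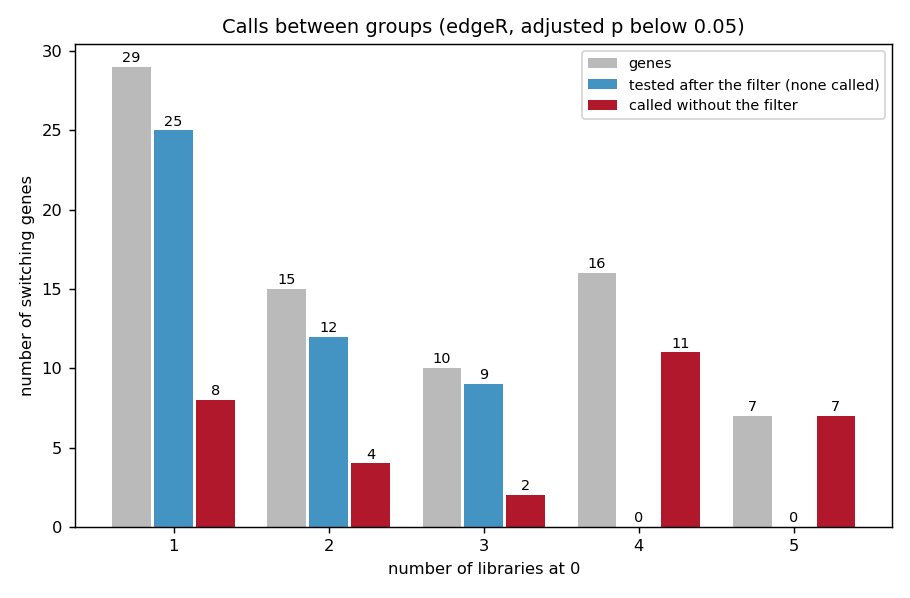
Number of switching genes (y axis) by the number of libraries at 0 (x axis), in grey, with those tested after the filter on low counts in blue and those called by edgeR without that filter in red. All 7 genes at 0 in 5 libraries and 11 of 16 at 0 in 4 were called without the filter, and none of these was tested with it.

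The choice of 20 as the smallest largest count set the edge of the list. There were 8 genes whose largest count was 20, such as Gm13408 with 0, 6 and 8 in Parental and 0, 20 and 2 in PDR, Gm40117 and Gm44973. Just outside were 7 genes with a 0 and a largest count of 19, among them Ece2, Gm20691 and Gm29585.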

How the data were processed

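Estimated counts for 6 libraries of EMT6 cells were taken as the authors deposited them, in 1 table of 53465 genes without scaling between samples. Per the submitters' processing notes, the authors checked reads with FastQC 0.11.5, aligned them with STAR 2.6.0a to GRCm38 and estimated counts with RSEM 1.3.1. The authors used GENCODE M16 per the study's methods. Gene types, exons, overlaps and copies came here from GENCODE M21 of the same build, a later release, so they can differ from the models the counts were estimated on. EMT6 derives from BALB/c mice, and the reference is of another strain. Estimates were rounded for all steps. Every sample column was used, so the number of unused columns is 0.

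Transcripts were aligned with BLAST+ 2.17.0 (megablast, word size 28, e-value 1e-30). A copy was a same-strand match of 200 or more bases with 95% identity or higher, and an estimate was whole within 0.01. PDR was set against Parental in edgeR 4.0.16 (R 4.3.3) by glmQLFTest, after filterByExpr (minimum count 10, minimum total 15) and upper quartile scaling, with Benjamini-Hochberg adjustment over all tested genes. The fit was tested on simulated data. Alternatives were DESeq2 1.42.0, limma-voom (limma 3.58.1), TMM or no scaling, the fit unfiltered or with 10 or more counts required of each library, a replicate block, and leaving out each library, besides other thresholds for counts, identity, length and whole estimates.

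The genes and lists were chosen with earlier results of these data known. Named genes were the 10 with the largest count, those at 0 in 3 libraries and at 20 or more in the others, those called, the 6 steadiest sums with a copy under 10 times the gene, genes without a copy or overlap, family members with a largest count of 50 or more, and those at the edge of the threshold. The other genes named were chosen after their values were seen, as were the sums with opposite-strand genes, the sums limited to copies under 10 times the gene, and the comparison with copies alone.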

Additional observations from a re-analysis of the deposited data

How the results depend on the processing

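The rule's thresholds moved the number of switching genes most. It was 77 in the main analysis, 252 with a largest count of 10 or more, 27 with 50 or more and 51 after scaling counts to the shallowest library, and from 59 to 73 across the 6 analyses that left out 1 library. The share with a near-identical copy rose from 67.6% to 93.2% with matches on either strand, and the share with a non-whole estimate fell to 67.5% when 3 or more libraries were required. Sums with copies stayed steadier than the gene under each alternative run, which follows largely from the rule and from arithmetic. Set against the copies alone, the sum was steadier in 29 of 50 genes. The 0 switching genes called became 32 without a filter on low counts, 1 with the replicate number as a block (Gm10222, adjusted p 0.0237) and from 0 to 3 when 1 library was left out. With 1 library less the filter let 53 to 59 switching genes be tested in place of 46, and genes at 0 in 4 libraries entered through the libraries where they were high. The calls were Gm2446, Gm48899 and Rps12-ps4 without Parental replicate 2 (3 of 57, against 64 of all 14288 genes tested). Without PDR replicate 1 they were H3f3c, Kpna2-ps and Rpl7a-ps11 (3 of 53, against 46 of all 14288). Of these, Gm2446 kept 0 and 17 in Parental, and each of the others had a group at 0 throughout. The library left out had gone the other way in each, in genes chosen for their zeros. Gm12191 was the only switching gene called without Parental replicate 3 (1 of 59, against 9 of all 14527). Gm10222 was the only such call without PDR replicate 2 (1 of 56, against 12 of all 14273). Gm14288 was the only such call without PDR replicate 3 (1 of 59, against 8 of all 14561). Requiring 10 or more counts of each library left none of the switching genes to test. Calls over all genes, 35 in the main fit, were 54 when each library needed 10 or more counts, 111 with DESeq2, 400 with no filter on low counts, 68 with the replicate block and from 8 to 64 with 1 library left out. Deviations of same-numbered libraries correlated by 0.109, 0.095 and -0.056, and whether replicate numbers pair the libraries was not tested. The log2 fold changes of Gm48899, Gm16567 and Gm10222 kept their direction in each fit that gave a value, and without 1 library ran from 2.29 to 7.05, 2.36 to 5.48 and 3.37 to 9.02, where the fits that leave a group near or at 0 give no bound on the fold. The causes of these changes were not tested, except that fewer libraries or genes entered some fits. Depth limits what can be said of a 0, which allows up to 3 counts.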
